A study of Homo sapiens with 22 samples.

Results

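The nucleoporins and the nuclear transport receptors were taken as all gene names in both count tables that begin with NUP, KPNA, KPNB, IPO, XPO or TNPO in the usual symbol form. The rule found 48 of 59087 names: 22 nucleoporins, 24 transport receptors, and NUPR1 and NUPR2, 2 genes that share only the letters of the name. RNA-Seq was done on HUDEP-2 cells, an immortalized human line of erythroid precursors kept growing by a doxycycline-dependent transgene, at D0 in expansion medium and at D6 of maturation in differentiation medium. By the paper's methods both media held doxycycline. At each day, 2 WT and 3 H2A.X KO samples were taken in the H2A.X experiment (10 libraries), while the experiment on BAZ1B had 3 WT and 3 KO samples (12 libraries). H2A.X is the histone variant that is phosphorylated at DNA breaks, and BAZ1B is a kinase that phosphorylates it on tyrosine. Both KO groups were subclones grown from single cells after CRISPR/Cas9 editing with lentiviral vectors. The paper also calls the WT cells of the H2A.X experiment subclones. It says of its WT subclones that they were handled like the KO lines. Differences between KO and WT thus include differences between clones.

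The nuclear pore complex is a ring-shaped channel through the nuclear envelope. Its outer rings are built from the Y complex, its inner ring from NUP93, NUP205, NUP188, NUP155 and NUP35, and its central channel from nucleoporins rich in phenylalanine-glycine repeats. Importins carry cargo into the nucleus and release it when they bind Ran-GTP, while exportins bind cargo together with Ran-GTP and leave with it. During terminal erythroid maturation the nucleus condenses and is then expelled, histones are partly moved out of it, and the exportin XPO7 is known from mouse and human erythroblasts as a factor of this condensation. Nothing about nuclear size or protein export was measured in these libraries, which hold mRNA levels only. In bulk RNA, a smaller share of cells that express a gene and less of its RNA per cell cannot be told apart.

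NUP210, a transmembrane nucleoporin, had the largest called change of all members during maturation in the BAZ1B experiment, and its promoter is therefore shown. The window is the 250 bases before the start given by RefSeq, at chr3:13420323-13420572 on the minus strand of GRCh38.p14, written 5′ to 3′. Capitals mark matches to CCNCNCCC, the core of the CACCC box bound by KLF factors, on either strand.
NUP210: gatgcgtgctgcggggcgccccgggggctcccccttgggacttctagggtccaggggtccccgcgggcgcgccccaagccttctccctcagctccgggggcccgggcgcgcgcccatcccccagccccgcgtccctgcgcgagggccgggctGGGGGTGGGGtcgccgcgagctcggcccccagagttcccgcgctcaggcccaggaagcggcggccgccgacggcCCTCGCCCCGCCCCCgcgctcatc
There are 5 matches, some of which overlap, beginning 98, 96, 24, 19 and 17 bases before the start. This motif is common: it was found in 53.4% of 35116 promoters of the same length and in those of 24 of the 40 members that had a promoter. The window held neither GATAA nor CCAAT on either strand. GATAA was found in 20.4% of all promoters and in 4 of the 40 members, and CCAAT in 32.0% of all promoters and in 16 of the 40 members.

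Of the 48 members, 44 passed the filter on low counts in the BAZ1B experiment and 45 in the H2A.X experiment. KPNA7, an importin alpha of the early embryo, and NUPR2 had 0 reads in every library. NUP210L, a paralog of NUP210 known from testis, had at most 2 reads in the BAZ1B experiment and 0 in the H2A.X experiment. NUPR1, a small chromatin protein of the stress response and no part of the pore, had at most 16 and 22 reads. These 4 genes take no part in the comparisons below, except that NUPR1 was among the 45 genes tested in the H2A.X experiment.

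Library totals ran from 33199408 to 41273244 counts in the BAZ1B experiment and from 11910141 to 21013004 in the H2A.X experiment. All 12 erythroid markers, among them the globin genes and ALAS2, had reads in every library. H2AFX was at 1575 to 2391 normalized counts in the WT and at 308 to 1050 in the KO libraries of the H2A.X experiment. BAZ1B mRNA was at 9104 to 9913 normalized counts in the WT and at 6556 to 8349 in the BAZ1B KO libraries, so a large part of the edited transcript was still counted. The paper's guides for BAZ1B lay before the start codon and after the first exon. It reports that the tyrosine phosphorylation of H2A.X was lost in the BAZ1B KO cells. The 48 members took 0.80% to 0.94% of all counted reads in the BAZ1B experiment. In the H2A.X experiment they took 0.404% to 0.657% in the 4 WT libraries and 0.723% to 0.91% in the 6 KO libraries. In that experiment the WT libraries were thus below all other libraries, and replicate 2 was the lower WT library at both days.

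**Figure D1:**
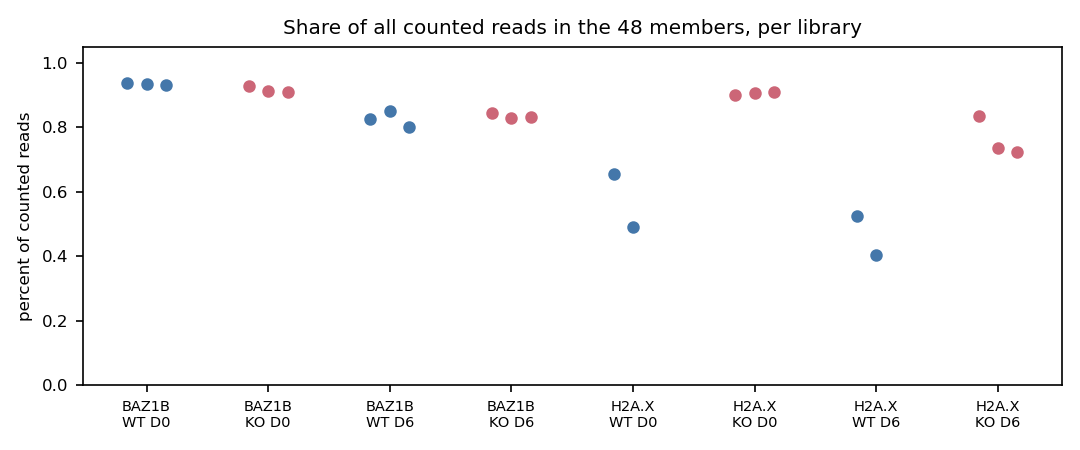
Share of all counted reads that fell in the 48 members, in percent, with 1 point per library (blue WT, red KO) for the 8 groups of both experiments. The 4 WT libraries of the H2A.X experiment lie at 0.404% to 0.657%, below every other library.

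Levels of different genes were compared as RPKM, normalized reads scaled by transcript length and library size, in WT cells at D0 of the BAZ1B experiment (mean ± SD, n = 3). The importin alpha KPNA2 was the highest at 154 ± 3.31, followed by its partner KPNB1 (importin beta) at 126 ± 2.47. XPO1, the general exportin for cargo with a leucine-rich signal, stood next at 92.5 ± 1.74, and IPO5, an importin of ribosomal proteins, after it at 83.9 ± 1.19. The nucleoporins NUP62 (77.8 ± 0.452) and NUP153 (73.8 ± 0.987) followed. XPO7 was the seventh of the 48 at 66.8 ± 2.08 and XPO5, the exportin of microRNA precursors, the eighth at 60.9 ± 1.09, and the ranges of mean ± SD of these 8 neighbours did not overlap. At the low end, KPNA5 was at 0.588 ± 0.0378 and IPO4 at 0.349 ± 0.0809. IPO4 shares 69.5% of its exonic bases with other annotated genes, most of it with a read-through transcript on its own strand, and reads in shared exons may not have been assigned to it.

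Maturation from D0 to D6 was asked first in the WT cells of the BAZ1B experiment, where the biological coefficient of variation was 0.0865, against 0.239 in the H2A.X experiment. The pore and its receptors did not move as 1 block: of the 44 tested members, 19 rose and 16 fell at an adjusted p below 0.05. Among all 13879 tested genes 33.5% rose and 35.4% fell, so the members' shares of 43.2% and 36.4% were near the background. The median log2 fold change of the members was 0.02, against −0.02 for all genes, and only NUP210 changed by as much as 1 on the log2 scale.

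NUP210 counted 8922, 8694 and 8676 normalized reads in the 3 WT libraries at D0 and 17388, 17779 and 17605 at D6. All D6 libraries lay above all D0 libraries. The fitted change was 2.01-fold, a log2 fold change of 1.01 ± 0.19 (SE) with an adjusted p of 0.000393. In the H2A.X experiment NUP210 was not called: WT had 3557 and 2471 normalized reads at D0 and 2652 and 2244 at D6 (log2 fold change −0.30, adjusted p = 0.468), and KO had a value of 0.24 (adjusted p = 0.326), with overlap in both. NUP88, which anchors the export platform at the cytoplasmic face, went from 3119, 3116 and 3100 to 4191, 4173 and 3996 normalized reads. Its log2 fold change was 0.40 ± 0.05 (adjusted p = 4.45e-06), again with no overlap. NUP54 of the central channel rose by 0.33 on the log2 scale, NUP93 of the inner ring by 0.32, and IPO7, an importin of ribosomal proteins and of linker histone, by 0.27. KPNA5 rose by 0.26 at a low level, with 235 to 267 normalized reads at D0 and 285 to 308 at D6. Its call (adjusted p = 0.034) was lost without WT replicate 2 or 3 at D0 or replicate 1 or 2 at D6, where the adjusted p ran from 0.0788 to 0.115.

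The largest decrease was that of TNPO1, the transportin that carries RNA-binding proteins into the nucleus. It counted 8384, 8111 and 7863 normalized reads at D0 and 5214, 5655 and 5134 at D6. All D6 libraries lay below all D0 libraries, and the log2 fold change was −0.61 ± 0.05 (adjusted p = 4.23e-07). XPO5 went from 12358, 12240 and 11937 to 8637, 8817 and 8320 normalized reads, a log2 fold change of −0.50 ± 0.04 (adjusted p = 7.19e-08). XPO4, another exportin, fell by 0.37 on the log2 scale, KPNA4 (an importin alpha) by 0.36, KPNB1 by 0.29 and NUP153, which builds the nuclear basket, by 0.27. KPNB1 stayed among the most abundant members, with 22818 to 23668 normalized reads at D6 against 27999 to 29122 at D0.

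XPO7 did not follow either group. It counted 12641, 12127 and 11899 normalized reads in WT at D0 and 11868, 12266 and 11435 at D6, and the groups overlapped. The log2 fold change was −0.04 ± 0.04 (adjusted p = 0.357), with a 95% interval from −0.13 to 0.04. That interval holds for TMM factors only. With library totals alone in their place XPO7 was called lower, and an offset for transcript length and GC content made its value positive.

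By role, 5 of the 6 Y complex subunits within the naming rule were higher (log2 fold changes from 0.10 to 0.23) and NUP160 was lower at −0.09. Of its subunits outside the rule SEC13 was higher (0.25), while SEH1L (−0.14) and AHCTF1 (−0.45) were lower. In the inner ring NUP93, NUP35 and NUP188 were higher while NUP155 (−0.23) and NUP205 (−0.11) were lower. The central channel was divided too, with NUP54 and NUP58 higher and NUP62 and NUP98 lower. At the cytoplasmic face NUP88 was higher and NUP214, its binding partner, lower at −0.22, and NUPL2 was not called. None of the 6 exportins within the naming rule was higher: XPO1, XPO4, XPO5 and XPO6 were lower, and XPOT and XPO7 did not pass. Of the 11 importins of the beta family and transportins, 5 were higher and 4 lower. Of the 6 tested importin alphas, KPNA2 and KPNA5 were higher and KPNA4 lower. These directions depend on the scaling: with library totals alone in place of TMM factors the median of all genes went to −0.18, and 5 members were then called higher and 24 lower, against 24.8% and 45.1% of all genes. An offset for transcript length and GC content moved them the other way, with a median of all genes of 0.08 and with 27 members higher and 6 lower, against 40.1% and 30.3% of all genes.

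**Figure D2:**
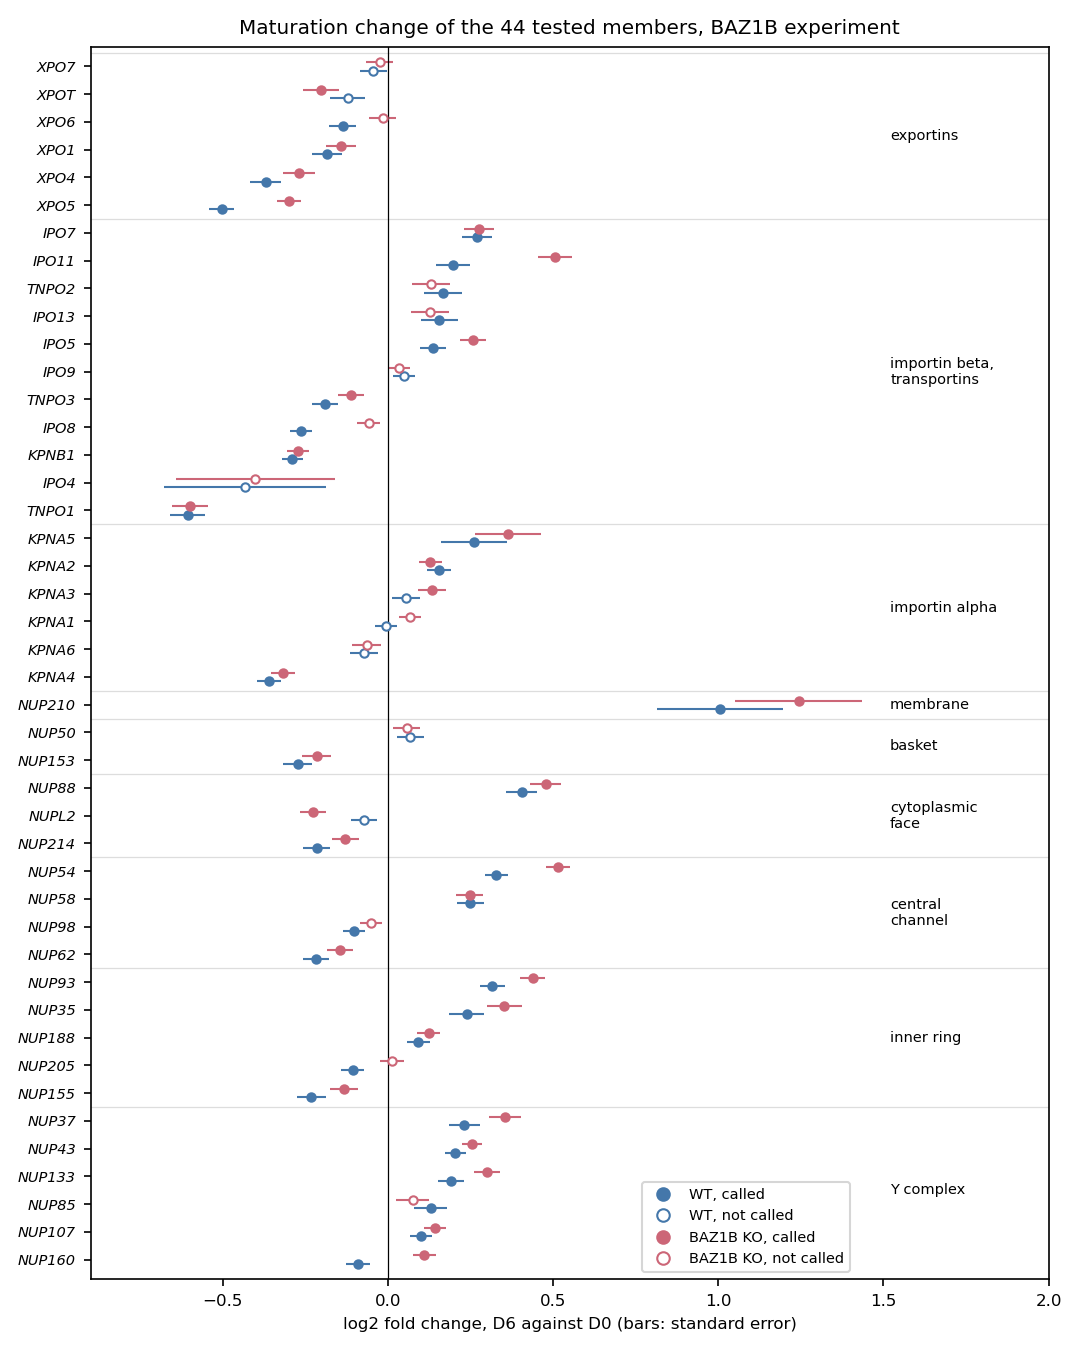
Log2 fold change at D6 against D0 (x axis, bars are standard errors) of the 44 tested members of the BAZ1B experiment, grouped by role, in WT (blue) and BAZ1B KO (red), with filled points for an adjusted p below 0.05. NUP210 lies farthest to the right in both genotypes (1.01 and 1.24) and TNPO1 farthest to the left (−0.61 and −0.60). None of the 6 exportins within the naming rule lies to the right of 0.

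Of 11 further pore components outside the naming rule, 2 rose and 7 fell in WT. AAAS, which anchors to the pore membrane through NDC1, rose by 1.20 on the log2 scale, while POM121, a transmembrane nucleoporin, fell by 0.55 and AHCTF1, which seeds pores on chromatin, fell by 0.45. Of 11 genes of the Ran cycle, carriers and adaptors, 6 rose and 4 fell. RCC1, the chromatin-bound exchange factor that loads Ran with GTP, fell by 0.48, and SNUPN, the import adaptor of spliceosomal particles, fell by 0.75. RANGAP1, which stimulates GTP hydrolysis by Ran, rose by 0.28, and RAN itself had a log2 fold change of 0.05 (adjusted p = 0.203). RANBP17, the paralog of XPO7, rose by 0.36 (adjusted p = 0.0362). CSE1L, an exportin that the naming rule leaves out, rose by 0.19 (adjusted p = 0.0021).

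Markers of other states moved with the day. In WT the summed level of 10 cell cycle genes was 111527 to 112008 normalized reads at D0 and 164179 to 167327 at D6. That of 8 mast cell and eosinophil markers was 17547 to 19094 at D0 and 1127 to 1532 at D6, and that of the 12 erythroid markers was 251185 to 279798 at D0 and 1478540 to 1697780 at D6. Their part in the changes of the members was not tested.

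In BAZ1B KO cells the same comparison gave 18 members higher and 13 lower, against 33.2% and 34.5% of all genes, with a median of 0.06. With the offset for length and GC content it gave 30 higher and 6 lower, against 40.6% and 28.9% of all genes. With library totals it gave 11 higher and 22 lower, against 23.3% and 45.9% of all genes. The libraries of this group are separate from the WT libraries. Of the 19 members higher in WT, 16 were also higher in KO (84.2% of the WT list and 88.9% of the KO list), and of the 16 lower in WT, 11 were also lower in KO (68.8% and 84.6%). NUP160 was called in opposite directions, lower in WT (−0.09) and higher in KO (0.11), but the difference of 0.20 ± 0.05 had an adjusted p of 0.0555. TNPO1 changed by −0.60 ± 0.05, KPNA4 by −0.32, XPO5 by −0.30, NUP54 by 0.51 and IPO11 by 0.51, and all of these were called. None of the 6 exportins within the naming rule was higher in KO either, with XPO1, XPO4, XPO5 and XPOT lower. Outside the rule, the exportin CSE1L (0.29, adjusted p = 9.32e-05) and RANBP17 (0.38, adjusted p = 0.0331) were higher in KO.

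NUP210 rose in each of the KO subclones, but from unequal starting levels. The KO libraries at D0 counted 8448, 4427 and 5825 normalized reads, and those at D6 17550, 11209 and 15508. Replicate 1 was the highest and replicate 2 the lowest KO library at both days. The log2 fold change in KO was 1.24 ± 0.19 (adjusted p = 7.34e-05). Against WT at D0 it was −0.49 ± 0.19 and did not pass (adjusted p = 0.215), although the groups did not overlap.

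**Figure D3:**
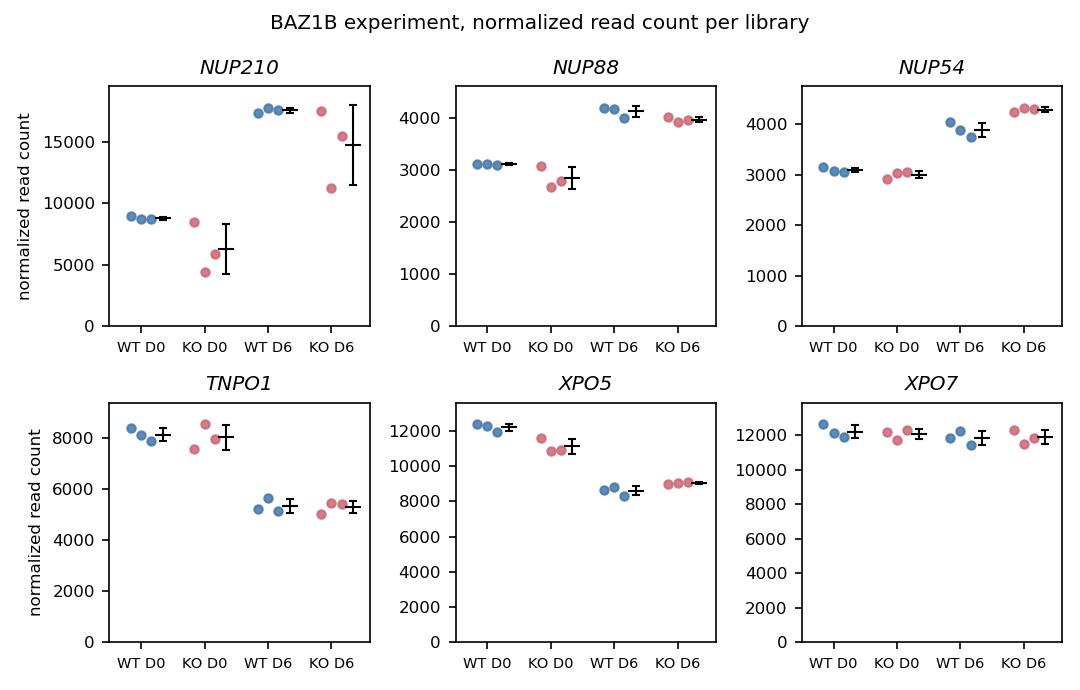
Normalized read count (y axis, from 0) of 6 members in each library of the BAZ1B experiment, with 1 point per library in 4 groups and the mean ± SD beside them (n = 3). NUP210 goes from 8676–8922 to 17388–17779 in WT and is spread over the KO subclones, TNPO1 and XPO5 are lower at D6 in both genotypes, and XPO7 stays between 11435 and 12641 in all 12 libraries.

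The effect of BAZ1B loss itself was small in this group of genes. At D0 none of the 44 members differed between KO and WT by edgeR, where 1.25% of all genes were higher and 2.64% lower. Among the members 5 had an unadjusted p below 0.05, against 15.4% of all genes. DESeq2 called 1 lower, against 0.95% of all genes with reads higher and 1.67% lower. At D6, 4 members were higher and 0 lower, against 6.87% and 5.97% of all genes. These were IPO11, IPO8, NUP54 and NUP160. With the offset for length and GC content, 11 members were higher and 0 lower at D6, against 12.7% and 4.91% of all genes. The study's cutoff for DEGs is a log2 fold change of more than 1.5 either way with a p below 0.001. No member passed it in edgeR or DESeq2 at either day, where 1.09% of all genes passed by edgeR at D0 and 1.27% at D6. With the p adjusted, 0.36% and 0.749% of all genes passed. Outside the naming rule, 0 of the 11 pore components were called at either day. Of the 11 genes of the Ran cycle, carriers and adaptors, 0 were called at D0 and 1 was lower at D6. That gene was RANBP17, at −0.51 at D0 (adjusted p = 0.0757) and −0.49 at D6 (adjusted p = 0.0386). Marker sums differed between the genotypes without overlap. The erythroid sum was 251185 to 279798 normalized reads in WT against 294747 to 312162 in KO at D0, and 1478540 to 1697780 against 1250440 to 1475190 at D6. The sum of 5 megakaryocyte markers was 2718 to 2836 against 1291 to 2542 at D0 and 317 to 392 against 55.5 to 180 at D6. Of these 5 markers, 3 or 4 had 0 reads in each library at D0 and 2 or 3 at D6, so the sum rests on few genes. The part of these marker sums in the members' values was not tested.

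IPO11, an importin of ubiquitin-conjugating enzymes, had the clearest difference. At D0 it counted 4963, 4938 and 4908 normalized reads in WT and 4669, 5463 and 5116 in KO, with overlap. At D6 it counted 5727, 5820 and 5418 in WT and 7102, 7085 and 7480 in KO, so that every KO library lay above every WT library. The log2 fold change at D6 was 0.35 ± 0.05 (adjusted p = 0.000708). IPO11 shares 21.5% of its exonic bases with other genes on its strand, chiefly LRRC70 within it.

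IPO8, an importin known to bring Argonaute proteins to the nucleus, was the next. At D6 it counted 2938, 2977 and 2923 normalized reads in WT and 3321, 3313 and 3370 in KO, without overlap, a log2 fold change of 0.18 ± 0.03 (adjusted p = 0.00404). Its decrease from D0 in WT (−0.26) was called, and the value in KO was −0.06 (adjusted p = 0.144). NUP54 differed by 0.14 ± 0.04 at D6 (adjusted p = 0.0201), but its adjusted p ran from 0.068 to 0.11 without WT replicate 2 or 3 or KO replicate 2 or 3 of D6, and it was 0.0609 with the groups of that day alone and 0.0583 with no filter on low counts.

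The KO effect was larger at D6 than at D0 for IPO11 (by 0.31 ± 0.07, adjusted p = 0.0443) and IPO8 (by 0.20 ± 0.05, adjusted p = 0.0443). These were the only members called in the test of that difference by edgeR, where 1.58% of all genes were called higher and 0.893% lower. The difference was positive in 35 of the 44 members, with a median of 0.06 against 0.01 for all genes. It was close to the threshold. Neither gene passed with upper-quartile factors, nor with any of the 6 WT libraries, KO replicate 3 of D0 or KO replicate 2 or 3 of D6 left out, and the adjusted p then ran from 0.0545 to 0.118 for IPO11 and from 0.0869 to 0.127 for IPO8. IPO8 also did not pass with library totals, with no filter on low counts, with the replicate block, with the offset for length and GC content, with the offset and the block, or without KO replicate 2 of D0 or replicate 1 of D6 (adjusted p from 0.0604 to 0.105). XPO7 counted 12205, 11738 and 12315 normalized reads in KO at D0 and 12295, 11480 and 11870 at D6, overlapping with WT at both days. Its KO against WT log2 fold changes were −0.02 ± 0.04 at D0 and 0.00 ± 0.04 at D6, with a 95% interval at D6 from −0.09 to 0.09.

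Maturation in the H2A.X experiment was measured with wider spread between replicates. In WT, 1 of 45 tested members was lower and 0 higher, against 1.16% and 0.839% of all genes. Among the members 4 had an unadjusted p below 0.05, against 21.1% of all genes. DESeq2 called 1 lower and 0 higher, against 2.29% and 1.68% of all genes with reads. The 1 member was KPNA5, with 182 and 195 normalized reads at D0 and 83 and 84 at D6, a log2 fold change of −1.17 ± 0.22 (adjusted p = 0.0352). The call was lost whenever any of these 4 libraries was left out, and the direction is opposite to that in the WT of the BAZ1B experiment, where KPNA5 rose by 0.26. XPO7 counted 3933 and 3251 normalized reads in WT at D0 and 2787 and 2205 at D6, without overlap, but its log2 fold change of −0.52 ± 0.24 did not pass (adjusted p = 0.235). The WT values also moved with transcript length. Spearman's rho of the log2 fold change with length was −0.24 over all genes and −0.34 over the members, given without a test. With an offset for length and GC content the members' median went from −0.13 to 0.01, and that of all genes from 0.01 to 0.02. Normalized reads of the 2 experiments are on different scales, since each was normalized within itself.

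In H2A.X KO cells 1 member was higher and 3 were lower, against 14.8% and 16.1% of all genes. NUP88 went from 1200, 1279 and 1339 normalized reads at D0 to 1773, 1752 and 1911 at D6, a log2 fold change of 0.51 ± 0.11 (adjusted p = 0.00749). XPO5 changed by −0.48 ± 0.13, IPO8 by −0.41 ± 0.14 and NUP62 by −0.34 ± 0.11. All 4 had the direction that they had in the WT of the BAZ1B experiment. The KO samples with the same number deviated together at D0 and D6. With the replicate block 7 members were called, 2 higher and 5 lower, against 18.2% and 20.3% of all genes. Without KO replicate 3 of D6, 9 members were called, 7 higher and 2 lower, against 18.5% and 18.4% of all genes. Without KO replicate 2 or 3 of D0 or replicate 2 of D6, NUP88 alone was called, and without KO replicate 1 of D0 NUP88 and XPO5 were. With no filter on low counts 2 were called, of which NUP88 was 1 and XPO5, IPO8 and NUP62 were not. NUP88 was not called with library totals (0.30, adjusted p = 0.157). KO replicate 3 of D6 is the single KO column whose header lacks the mark "Redo", and 0 of the 4 WT columns carry the mark. XPO7 counted 5932, 4997 and 5228 normalized reads in KO at D0 and 4953, 6409 and 3845 at D6, with overlap and a log2 fold change of −0.09 ± 0.19 (adjusted p = 0.763).

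Between H2A.X KO and WT most members were higher in KO. At D0, 23 of 45 were higher and 3 lower, against 18.4% and 16.7% of all genes, and at D6, 27 were higher and 2 lower, against 22.2% and 20.9%. The median log2 fold change of the members was 0.51 at D0 and 0.58 at D6, while that of all genes was 0.01 and −0.01. Of the 23 members higher at D0, 21 were also higher at D6 (91.3% and 77.8% of the lists), and IPO4 and NUP37 were lower at both days. The libraries of the 2 days are separate, but they come from the same subclones.

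NUP153 had the largest increase. It counted 3660 and 2052 normalized reads in WT and 7945, 7247 and 6965 in KO at D0, a log2 fold change of 1.37 ± 0.29 (adjusted p = 0.0092). At D6 it counted 2504 and 1702 in WT and 6927, 6670 and 4382 in KO, a log2 fold change of 1.51 ± 0.29 (adjusted p = 0.0047). IPO7 counted 2664 and 1907 in WT and 5170, 5324 and 5576 in KO at D0, and 2481 and 2002 against 7195, 7314 and 4422 at D6. Neither gene showed overlap between KO and WT, and the log2 fold changes of IPO7 were 1.23 ± 0.24 and 1.49 ± 0.24. NUP160 of the Y complex was higher by 1.09 ± 0.24 at D0, and NUP58 of the central channel by 1.35 ± 0.25 at D6.

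Of the lower members, NUP37 of the Y complex counted 1823 and 2724 normalized reads in WT and 1573, 1504 and 1613 in KO at D0. At D6 it counted 2417 and 2836 in WT and 1776, 1696 and 1953 in KO. The groups did not overlap at either day, and the log2 fold change was −0.54 ± 0.17 at both (adjusted p = 0.0367 at D0 and 0.0309 at D6). Over both days the call of NUP37 was lost 12 times under the alternatives. At D0 these included library totals and leaving out KO replicate 1 or 2 of D0, where 0 members were lower. NUP88 was lower at D0 (−0.48 ± 0.12, adjusted p = 0.0165) and had a log2 fold change of 0.11 at D6 (adjusted p = 0.493). IPO4, an importin of core histones, had the largest differences, −1.46 ± 0.44 and −1.93 ± 0.45, on 61 and 66 normalized reads in WT against 16 to 27 in KO at D0 and 50 and 100 against 11 to 28 at D6. It lies outside the rule for named genes because of these low counts and was named after its values were seen.

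**Figure D4:**
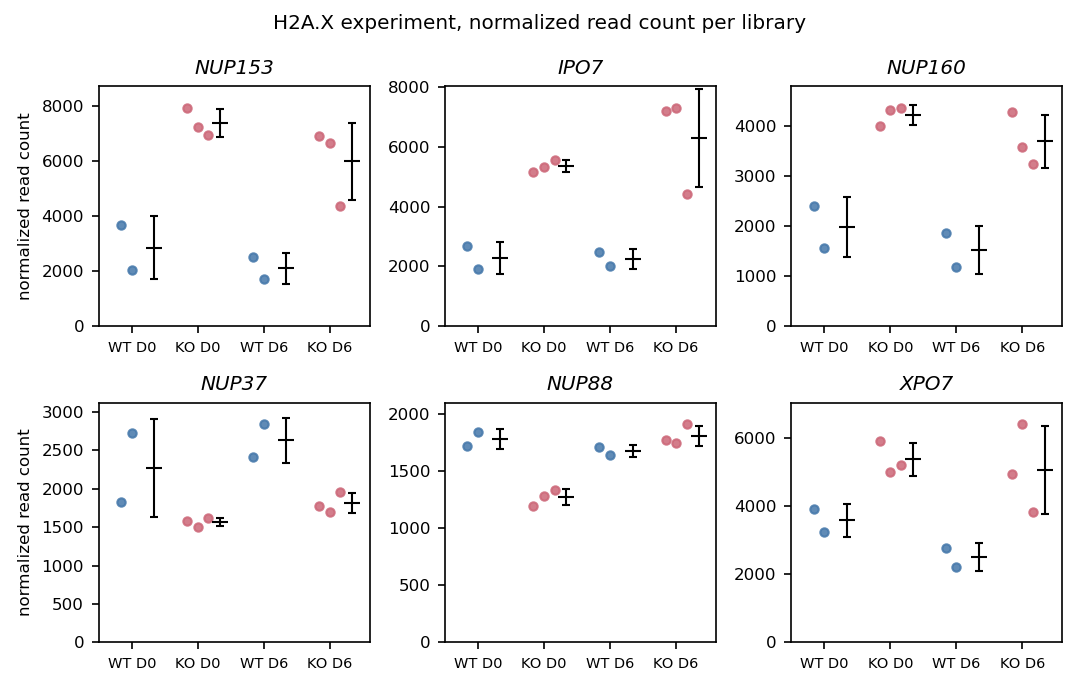
Normalized read count (y axis, from 0) of 6 members in each library of the H2A.X experiment, with 1 point per library in 4 groups and the mean ± SD beside them (n = 2 for WT and n = 3 for KO). All KO libraries lie above all WT libraries for NUP153, IPO7, NUP160 and XPO7 at both days and below them for NUP37, while the KO libraries of NUP88 lie below WT at D0 and above WT at D6.

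XPO7 in H2A.X KO cells was at 4997 to 5932 normalized reads at D0 against 3251 and 3933 in WT, and at 3845 to 6409 against 2205 and 2787 at D6. KO and WT did not overlap at either day. The log2 fold change was 0.58 ± 0.22 at D0, which did not pass (adjusted p = 0.0589), and 1.02 ± 0.22 at D6, which did (adjusted p = 0.00645). The difference of 0.44 ± 0.30 between the days had an adjusted p of 0.561. At D0 XPO7 passed by DESeq2 (adjusted p = 0.0354) and with the groups of that day alone (adjusted p = 0.0184), and at D6 it did not pass without WT replicate 2 (0.89, adjusted p = 0.0787).

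By role, 7 of the 11 importins of the beta family and transportins were higher at D0 and 8 at D6, with IPO4 lower at both. Of the 6 exportins, XPO1, XPO4, XPO5 and XPOT were higher at D0 and XPO1, XPO4, XPO6 and XPO7 at D6. In the inner ring NUP155, NUP188 and NUP205 were higher at both days, while NUP35 and NUP93 were not called at either. Among the members of the Y complex NUP160 was higher and NUP37 lower at D0, and NUP133 joined the higher ones at D6. Of the 11 pore components outside the naming rule, 4 were higher and 2 lower at D0, and 5 were higher and 1 lower at D6. TPR, AHCTF1, RANBP2 and POM121 were higher at both days, by 0.86 to 1.21 on the log2 scale, SEC13 was lower at both (−0.55 and −0.58), and AAAS was lower at D0 (−0.81, adjusted p = 0.0108). Of the 11 genes of the Ran cycle, carriers and adaptors, 0 were higher at either day, 4 were lower at D0 and 5 at D6, against 16.7% and 20.9% of all genes lower, among them RAN (−0.61 and −0.60), RANBP1 (−0.97 and −0.94) and NXT1 (−1.13 and −1.01).

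Transcript length moved with this comparison. Across 12017 genes with a known length, Spearman's rho of the KO against WT log2 fold change with transcript length was 0.54 at D0 and 0.60 at D6, and over the 45 members it was 0.51 and 0.53. In the BAZ1B experiment the same values over all genes were −0.03 and 0.05. Genes of a library are not independent, and these values are given without a test. The tested members have long transcripts, with a median of 5228 bases against 3119 for all tested genes. Outside the rule, the transcripts of TPR, AHCTF1, RANBP2 and POM121 are 5842 to 11708 bases long, and those of RAN, RANBP1 and NXT1 are 1062 to 2474 bases long.

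With an offset for length and GC content in each library, far fewer members were called higher. At D0, 3 members were then higher and 11 lower, against 7.66% and 15.9% of all genes, and at D6, 5 were higher and 5 lower, against 9.05% and 11.9%. The members' medians were 0.00 at D0 and 0.01 at D6, while those of all genes were −0.11 and −0.04. NUP153 (0.73 and 0.81), IPO7 (0.54 and 0.64) and NUP160 (0.54 and 0.66) were higher at both days with the offset too, and NUP58 and NUP210 at D6. NUP37 (−0.53 and −0.61) and IPO4 (−1.59 and −1.88) were lower at both days with and without it. IPO9, an importin of histones, was called higher at D0 without the offset (0.52) and lower with it (−0.56). XPO7 had 0.11 at D0 and 0.53 at D6 (adjusted p = 0.058) with the offset.

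**Figure D5:**
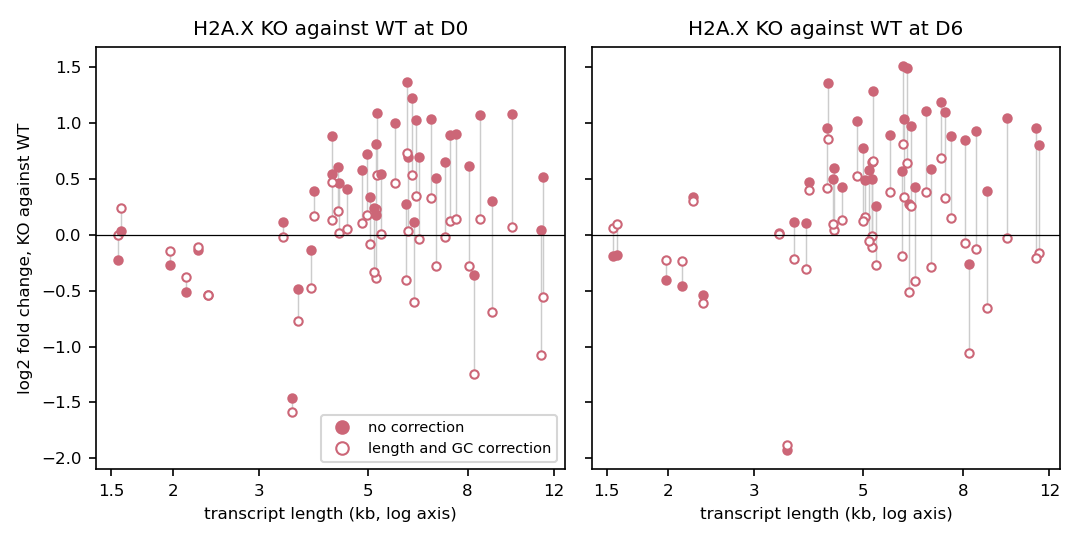
Log2 fold change of H2A.X KO against WT (y axis) for 44 members against transcript length in kilobases (x axis, log scale) at D0 and D6, without (filled) and with (open) the offset for length and GC content, joined by a line for each gene. NUPR1 is not drawn, the filled points rise with length, and the medians go from 0.51 and 0.58 to 0.00 and 0.01.

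The calls also rested on 1 WT library at each day. Without WT replicate 2 of D0 no member was called at D0, when 0.365% of all genes were higher and 0.186% lower, and without WT replicate 2 of D6 none was called at D6, when 0.42% of all genes were higher and 0.68% lower. The remaining WT library is assumed in these fits to vary like the other groups. Most members were still above 0 without them: 35 of 45 members were above 0 at D0 (median 0.38) and 37 at D6 (median 0.58), as with all libraries. At D0 all 3 KO columns and none of the WT columns carry the mark "Redo", so that the mark and the genotype cannot be told apart. The marker sums also differed between KO and WT. The summed level of the erythroid markers at D0 was 429693 and 591261 normalized reads in WT against 217255 to 289365 in KO, without overlap, and the ranges overlapped at D6. That of the mast cell and eosinophil markers at D0 was 1821 and 2456 in WT against 3679 to 7368 in KO, and in the opposite order at D6, with 2541 and 4069 in WT and 54.2 to 237 in KO. The megakaryocyte sum at D0 was 153 and 170 in WT against 575 to 1330 in KO, while 3 or 4 of its 5 markers had 0 reads in each of these libraries. The cell cycle sum was 49699 and 50388 against 51493 to 53188 at D0 and 58677 and 60859 against 61814 to 94009 at D6. The part of these differences in the members' values was not tested.

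By the study's cutoff for DEGs, 0 members passed by edgeR at D0 in the H2A.X experiment and 1 at D6, NUP153, against 3.88% and 5.53% of all genes. With the p adjusted 0 members passed at either day, against 0.166% and 0.151% of all genes. An unadjusted p below 0.05 was found for 30 and 34 of the 45 members, against 47.1% and 52.2% of all genes. DESeq2 put 0 members past the cutoff at D0 and 3 at D6, with the p adjusted or not, which were NUP153, IPO7 and IPO4. The test of the difference between the KO effects at D6 and D0 called 0 of 45 members in either direction, against 0.302% of all genes higher and 1.04% lower. Among the members 3 had an unadjusted p below 0.05 in it, and DESeq2 called 1.

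Some values carry the limits of read assignment. NUP88 shares 35.5% of its exonic bases with genes of the opposite strand (RABEP1 and RPAIN) and NUP62 20.1% with genes of either strand, and whether the counting used strand is not settled by the sources used here. For 9 members, among them NUP210, TNPO1, IPO7 and KPNA2, the tables list named pseudogene copies (17 in all), so part of their reads could have been split or left unassigned.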

How the data were processed

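The authors deposited 1 table of raw read counts per gene for each experiment, with no normalization. Per the labels' processing notes the tools were STAR 2.7.0f, Subread 1.6.4 (featureCounts) and DESeq2 1.22.1 with genome build hg38. The labels and the study's methods name different library kits, of which only 1 keeps strand. Positions and lengths are from GENCODE v44 (GRCh38), where all 48 members matched, NUPL2 as NUP42.

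The work was done in R 4.3.3. Genes were kept with edgeR 4.0.16 by filterByExpr (minimum count 10, minimum total 15), normalized by TMM and fitted within each experiment by the quasi-likelihood test with 1 coefficient per genotype and day. P-values are two-sided and adjusted by Benjamini-Hochberg over all genes of the experiment, and a gene was called at an adjusted p below 0.05. To normalize a count, it was divided by the ratio of its library's effective size to the experiment's average. Errors are SEs of the fit or SDs over samples. Replicates differed by more than sampling noise, and with no label of separate cultures p-values measure only the spread between these samples. The fitting was tested on simulated data.

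Named were XPO7 and, in each comparison, up to 3 called members with the largest change each way (6 in WT of the BAZ1B experiment) without overlap of the groups whose normalized counts averaged at least 50. The members and lists were chosen with earlier results of these data known. Alternatives were DESeq2 1.42.0, upper-quartile factors, library totals, no filter on low counts, the compared groups alone, the replicate block, an offset for transcript length and GC content (mgcv 1.9.3), and leaving out each library. The count of DEGs by unadjusted p was added after the data were seen.

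Sample numbers were taken as paired where the deviations of samples with the same number correlated above 0.1 in each of 3 pairs. This held for D0 and D6 of the BAZ1B KO (0.473, 0.55 and 0.109) and of the H2A.X KO (0.549, 0.349 and 0.272). It did not hold for the other pairings of the BAZ1B experiment. The replicate block was a term for the sample number in KO against WT. From D0 to D6 it was a term for each sample number within a genotype. It was run for all comparisons, but only its pairing of D0 with D6 within the KO met the rule. The H2A.X WT has only 2 samples per day, so no pairing with it could meet the rule. Its D0 and D6 gave 0.548 for both pairs, which must be equal because deviations from a mean of 2 mirror each other.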

Additional observations from a re-analysis of the deposited data

Results flagged for a closer look

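IPO11 and IPO8 met the test for a difference between days, since the BAZ1B KO effect at D6 exceeded that at D0 by 0.31 (adjusted p = 0.0443) and 0.20 (adjusted p = 0.0443) on the log2 scale.

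The log2 fold changes of some members had opposite signs from D0 to D6 in the 2 experiments, with no overlap between the days in either. This difference between experiments was not tested, since each experiment was normalized and fitted alone. The H2A.X WT values moved with transcript length, as given above. In WT, KPNA5 changed by 0.26 in the BAZ1B experiment and by −1.17 in the H2A.X experiment. The other WT values in the BAZ1B and the H2A.X experiment were 0.24 and −0.13 for NUP35, 0.33 and −0.16 for NUP54, 0.40 and −0.085 for NUP88, −0.071 and 0.094 for NUPL2, and −0.12 and 0.48 for XPOT, of which no H2A.X value passed, nor did the BAZ1B values of NUPL2 and XPOT. In KO, the values were 0.36 and −0.26 for KPNA5 and 0.12 and −0.17 for NUP188, and neither H2A.X value passed.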

How the results depend on the processing

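The count of members called in maturation stayed within 1.5 times of its value under every alternative run for WT (28 to 31 with 1 library left out) and KO (27 to 32) of the BAZ1B experiment, although library totals and the offset for length and GC content changed the split as given above. With 1 library left out, 30.8% to 31.7% of all genes were higher and 32.2% to 33.0% lower in WT. In KO these shares were 30.6% to 32.7% and 32.1% to 34.4%. The other counts moved. For BAZ1B KO against WT at D0, 1 member was called by DESeq2 and 1 with no filter on low counts, and 0 to 3 with 1 library left out (3 without KO replicate 1 of D0). With no filter 1.76% of all genes with reads were higher and 2.66% lower. Without KO replicate 1 of D0 the shares were 4.16% and 5.2%. At D6 the count was 2 with the compared groups alone, 11 with the offset for length and GC content, 11 with the offset and the replicate block, and 2 to 4 with 1 library left out (2 without WT replicate 2 or 3 or KO replicate 2 or 3 of D6). With the offset all 11 were higher, against 12.7% of all genes higher and 4.91% lower, or 13.1% and 5.15% with the replicate block added. With the compared groups alone the shares of all genes were 6.04% and 5.83%. Without WT replicate 2 or 3 or KO replicate 2 or 3 of D6 they were 4.14% to 5.79% and 3.73% to 5.36%. The difference of the BAZ1B KO effects gave 5 by DESeq2, 0 with upper-quartile factors, 1 with library totals and 0 to 4 with 1 library left out (4 without KO replicate 1 of D0, 2 without KO replicate 1 of D6, and 0 or 1 without any of the others). By DESeq2 1.69% of all genes with reads were higher and 0.924% lower. The shares were 1.23% and 1.17% with upper-quartile factors and 1.4% and 0.987% with library totals. Without KO replicate 1 of D0 they were 3.37% and 2.04%, and without KO replicate 1 of D6 1.65% and 1.07%. For maturation in H2A.X WT the count was 0 with the compared groups alone and 0 with any 1 of its libraries left out. In H2A.X KO it was 2 with no filter, 7 with the replicate block, 10 with the offset, 13 with the offset and the replicate block, and 1 to 9 with 1 library left out (1 or 2 without KO replicate 1, 2 or 3 of D0 or replicate 2 of D6, 9 without replicate 3 of D6). For H2A.X KO against WT it was 14 at D0 and 10 at D6 with the offset, 15 and 13 with the offset and the replicate block, and 0 to 24 and 0 to 35 with 1 library left out (0 at either day without its WT replicate 2, and 16, 14 and 16 without KO replicate 1, 2 or 3 of D0). The difference of the H2A.X KO effects gave 1 by DESeq2, 1 with the offset and the replicate block, and 0 to 1 with 1 library left out (1 without KO replicate 3 of D6). The causes were not tested. The replicate block alone changed no other count by over 1.5 times, and the counts with it were 36 and 33 for BAZ1B maturation in WT and KO, 0 and 3 for BAZ1B KO at D0 and D6, and 29 and 33 for H2A.X KO.

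The 47 named values were refitted under the alternatives, where 542 results kept sign and call, 93 lost the call and 7 gained it. Lost calls were most frequent for IPO8 (24), NUP37 (12) and KPNA5 (11). Only the values of XPO7 changed sign, 19 times, from main values between −0.09 and 0.02. Calls were not counted for values that changed sign, so the 7 gained calls leave these out. In BAZ1B maturation they became 0.13 in WT with the offset and 0.13 with the offset and the replicate block, and 0.13 in KO with either. In BAZ1B KO against WT at D0 they became 0.036 with either, and with 1 library left out they ran from −0.036 to 0.0072, positive without WT replicate 1 or KO replicate 2. At D6 they became −0.018 with upper-quartile factors and −0.0043 with library totals, and with 1 library left out they ran from −0.029 to 0.023, negative without WT replicate 3 or KO replicate 1. Their difference became −0.011 with upper-quartile factors and ran from −0.015 to 0.0402 with 1 library left out, negative without WT replicate 1 of D0, WT replicate 3 of D6 or KO replicate 1 of D6. In H2A.X KO maturation they became 0.078 with the offset and 0.055 with the offset and the replicate block, and ran from −0.29 to 0.099 with 1 library left out, positive without KO replicate 3 of D6. Library totals also called XPO7 lower at D6 in the BAZ1B experiment (−0.20 in WT and −0.19 in KO). With 2 WT samples and a coefficient of variation of 0.239, small changes were not detectable in the H2A.X experiment.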
